A study of Mus musculus with 9 samples.

Results

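The genes described here are 10 genes of the cytotoxic granule, of 55471 genes in the count files: the granzyme genes Gzma, Gzmb, Gzmc, Gzmk and Gzmm, the perforin gene Prf1, the granule genes Nkg7, Srgn and Lamp1, and the granzyme inhibitor gene Serpinb9. They were chosen by name and found by matching Ensembl identifiers, version dropped, to GENCODE M21, and all 10 were matched. RNA was sequenced from mouse CD8+ T cells with the OT-I receptor, a transgenic receptor for an ovalbumin peptide, in 4 control and 5 DKO libraries. The control cells (Bdh1-WT;shCtrl) had intact Bdh1 and an shRNA against firefly luciferase, while the DKO cells (Bdh1-KO;shOxct1) were labelled as knockout for Bdh1 and had an shRNA against Oxct1, both genes for enzymes of ketone body oxidation. Cells of both groups had been activated in culture with antibodies to CD3ε and CD28 and with IL-2, transduced, and sorted for the Ametrine reporter. Naive recipient mice (C57BL/6, CD45.1) received the cells and were infected a day later with LmOVA, a Listeria strain that carries ovalbumin. On day 7 of infection the transferred cells were recovered by sorting for Ametrine and CD45.2. The age of the mice, how Bdh1 was inactivated and whether replicates came from different donors are not stated in the labels, so p-values measure the spread between these libraries.

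A killer T cell stores its weapons in granules that are modified lysosomes. Perforin opens pores in the membrane of the target cell, and granzymes, a family of serine proteases, pass into the target and cut proteins that lead to its death. The proteins are packed on the proteoglycan serglycin and released when the granule fuses with the cell surface. Granzymes are made active by cathepsin C. A cytosolic serpin protects the killer cell from its own granzyme B.

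Granzymes share the catalytic site of trypsin-like proteases. The coding stretch around the catalytic serine is shown for the 5 granzyme genes because it shows how alike family members are, which bears on reads that can be counted only where they map to 1 place. Each stretch is 30 coding bases of the GENCODE M21 transcript, in exon 5 of 5, and the capitals mark the in-frame codons for aspartate, serine and glycine.
Gzma: gggGATTCTGGCagccctctgctatgtgat
Gzmb: gggGATTCTGGAggcccgcttgtgtgtaaa
Gzmc: gagGATTCTGGAggcccgcttgtgtgtaaa
Gzmk: ggtGACTCTGGTggccctttgatctgcaaa
Gzmm: ggtGACTCTGGAgggcccctggtgtgtggc
Gzmc differed from Gzmb at 1 of these 30 bases, whereas Gzma and Gzmm differed from it at 8 bases each and Gzmk at 9. In GRCm38 coordinates the Gzmb stretch lies on the minus strand of chromosome 14 from 56259533 to 56259562, and the Gzmc stretch on the same strand from 56231628 to 56231657. Over whole transcripts the members could be told apart. Of all windows of 50 bases, 0% of those of Gzma, Gzmb, Gzmk, Gzmm, Prf1, Srgn and Nkg7 occurred in a transcript of another gene, against 4.14% for Gzmc (most often Gzme), 0.378% for Serpinb9 (Serpinb9b) and 5.90% for Lamp1 (Grtp1, which overlaps it on the opposite strand).

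Each library held 45205993 to 59853080 counts in genes. The targeted genes followed the labels: mean ± SD over 4 control and 5 DKO libraries was 63.2 ± 5.73 against 5.16 ± 0.370 CPM for Oxct1 and 30.5 ± 4.16 against 10.6 ± 1.24 CPM for Bdh1, so both were lower in DKO but still counted. Where in Bdh1 the knockout lies is not given in the labels, so its remaining counts do not check the deleted part. CPM are counts relative to library size, scaled by TMM, a factor that evens out library composition. Control replicate 1 stood apart, with 16.7% of reads unmapped (10.3 to 12.3% in the others) and -79.1 on the first principal component of log2 CPM (-7.25 to 23.5 in the others). Among genes at 10 CPM or more, its log2 level differed from the mean of the other controls by a median of 0.51 for genes under 1500 exon bases and by -0.39 for genes of 6000 and over. Since several granule genes are short, the log2 fold change of each of the 10 is also given without this library. Control replicate 3 stood apart on the second component, at -70.2 against -5.59 to 20.2 in the others. It was the lowest control for 5 of the 10 genes (Gzma, Gzmb, Gzmc, Gzmm and Nkg7), a count not made over all genes. All 6 CD8 T cell markers averaged above 1 CPM, and their sum ran from 6102 to 8206 CPM in control and from 5510 to 6016 CPM in DKO. Of 7 genes listed for NK cells, 5 averaged above 1 CPM. Klrb1c was at 72.9 and 61.4 CPM in control and DKO (adjusted p 0.416, edgeR). Cma1, the mast cell chymase gene, stood in the same list at 9.74 and 3.96 CPM (adjusted p 0.0593, edgeR). DESeq2 and limma-voom each called it lower. Of 6 mast cell and basophil genes, 0 averaged above 1 CPM. The defining NK cell gene Ncr1 reached at most 0.248 CPM, and each of 8 neutrophil genes averaged under 1 CPM. The sum of 8 B cell genes, most of it Ighm, was 179.3 to 264.6 CPM in control and 187.6 to 209.8 CPM in DKO. The sum of 10 myeloid genes, 8 of them above 1 CPM on average, was 251.5 to 290.9 CPM in control and 201.1 to 215.2 CPM in DKO, and its members did not all move one way. Ctss (81.2 to 51.3 CPM, adjusted p 0.00734) and Cd68 (29.2 to 16.8 CPM, adjusted p 0.0138) fell in edgeR. Cst3, the highest, was at 96.4 and 90.9 CPM (adjusted p 0.801, edgeR). The means of Lyz2 (2.43 and 5.85 CPM) and Csf1r (1.84 and 2.37 CPM) were higher in DKO, with adjusted p of 0.206 and 0.804 in edgeR, and DESeq2 called Lyz2 higher. Adgre1, a macrophage gene, reached at most 2.06 CPM. In bulk RNA, fewer cells that express a gene and less RNA per cell cannot be told apart.

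Per transcript length, Nkg7 and Gzma were far above the other granule genes and Gzmc far below them. Levels are given here as TPM, which divide counts by transcript length, computed from the counts and merged exon lengths, over the 9 libraries. Nkg7, whose membrane protein takes part in granule release, was at 12009 ± 1599.8 TPM (SD, n = 9), the fifth highest of all genes, and Gzma, the tryptase of the family, at 9869 ± 1631 TPM, the sixth. Gzmb, the aspartate-cutting granzyme, followed at 2584 ± 408 TPM. Gzmk, a second tryptase (834 ± 194 TPM), Srgn, the core protein of serglycin (679 ± 87.6 TPM), and Prf1 (678 ± 126.1 TPM) had ranges over libraries that overlapped from 1 gene to the next, within 565 to 1209 TPM. Lamp1, a lysosome membrane glycoprotein, and Serpinb9 were at 274 ± 25.01 and 227 ± 32.9 TPM with overlapping ranges. Gzmm, a granzyme that cuts after methionine and leucine, was at 95.4 ± 12.8 TPM and Gzmc at 1.09 ± 0.376 TPM. Ranges over libraries overlapped for Nkg7 and Gzma, from Gzmk to Prf1, and for Lamp1 and Serpinb9, while the ranges of the other neighbours were apart. Compared within each of the 9 libraries, Nkg7 was always above Gzma and Lamp1 always above Serpinb9. The order of Gzmk, Srgn and Prf1 changed between libraries.

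**Figure D1:**
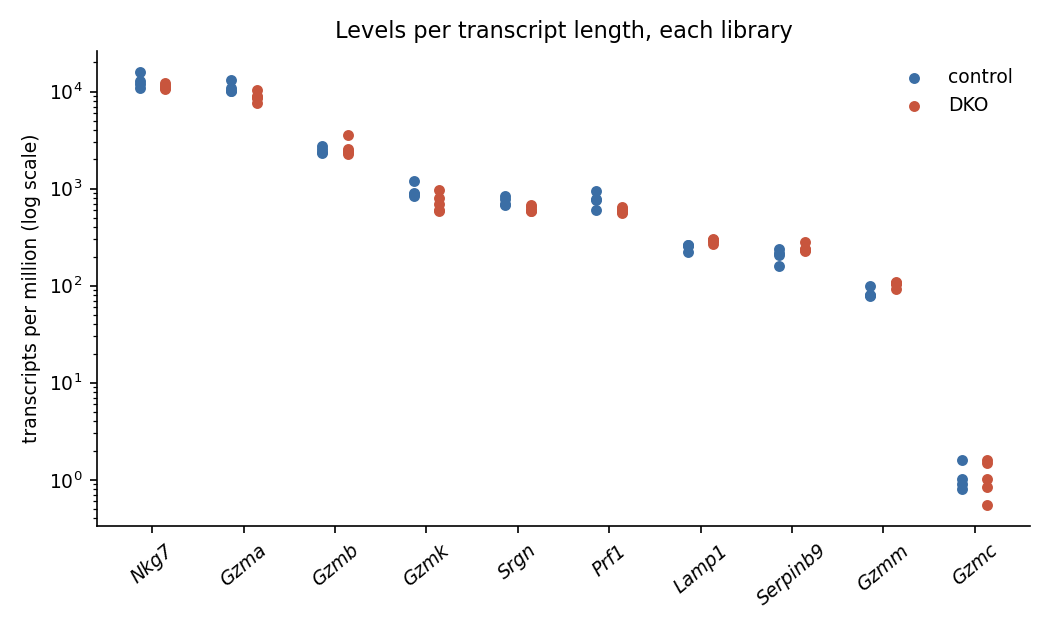
Level of each granule gene per transcript length (TPM, log axis) in every library, ordered by the mean. Nkg7 and Gzma lie between 7706 and 15801, Gzmb between 2276 and 3601, and Gzmc between 0.553 and 1.59.

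The comparison of DKO with control asks whether the targeted loss of ketone body use goes with other levels of effector transcripts. With edgeR (quasi-likelihood, Benjamini-Hochberg), 0 of the 10 granule genes had an adjusted p under 0.05, where 2.83% of all 14918 tested genes passed (1.51% lower and 1.32% higher in DKO). At an unadjusted p under 0.05 there were 5, which were lower in DKO for Prf1, Srgn, Gzma and Gzmk and higher for Lamp1, against 16.0% of all genes (8.25% lower and 7.74% higher). The DESeq2 test called 2 of the 10 (Prf1 lower, Lamp1 higher), where it called 6.96% of all genes, and limma-voom called 2 (Prf1 lower, Gzmm higher), where it called 6.68%. All 10 passed the filter on low counts. The median log2 fold change of the 10 was -0.13, beside -0.01 over all tested genes, with 6 negative and 4 positive values from -0.43 to 0.25. Without control replicate 1, edgeR called 2 of the 10 (Prf1 lower, Gzmm higher) and 4.93% of all genes. With 1 surrogate variable 4 of the 10 passed (8.37% of all genes), and with the stricter filter or summed strand columns 1 did (4.04% and 2.88%). In the remaining alternatives 0 passed, where all genes gave 2.78% with DESeq2 size factors in edgeR, 1.28% without a filter, 0.449% with a replicate block, 2.07, 2.25 and 1.23% without control replicates 2 to 4, and 1.22, 1.90, 1.22, 1.50 and 1.54% without DKO replicates 1 to 5. Prf1 and Lamp1, 2 of the 10, had groups with no overlap in CPM, as had 8.71% of all genes (4.09% lower and 4.62% higher); without control replicate 1 it was 3 of the 10, with Gzmm, and 14.5% of all genes. Together the 10 genes made up 0.906 to 1.31% of a control library's counts and 0.787 to 1.01% of a DKO library's, with overlap between the groups. The CD8 T cell marker sum, unlike that share, was lower in every DKO than in every control library. Of its 6 genes only Cd8b1 passed, at 2247 and 1702 CPM in control and DKO (adjusted p 0.0428, edgeR). DESeq2 and limma-voom each called Cd8b1 lower too. Cd8a was at 719 and 716 CPM in control and DKO (adjusted p 0.973, edgeR). The sum of the 7 genes listed for NK cells, which have the same granule genes, was 74.8 to 110.2 CPM in control and 57.4 to 80.8 CPM in DKO. Most of that sum was Klrb1c. The part of other cells in the granule genes' levels was not tested.

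**Figure D2:**
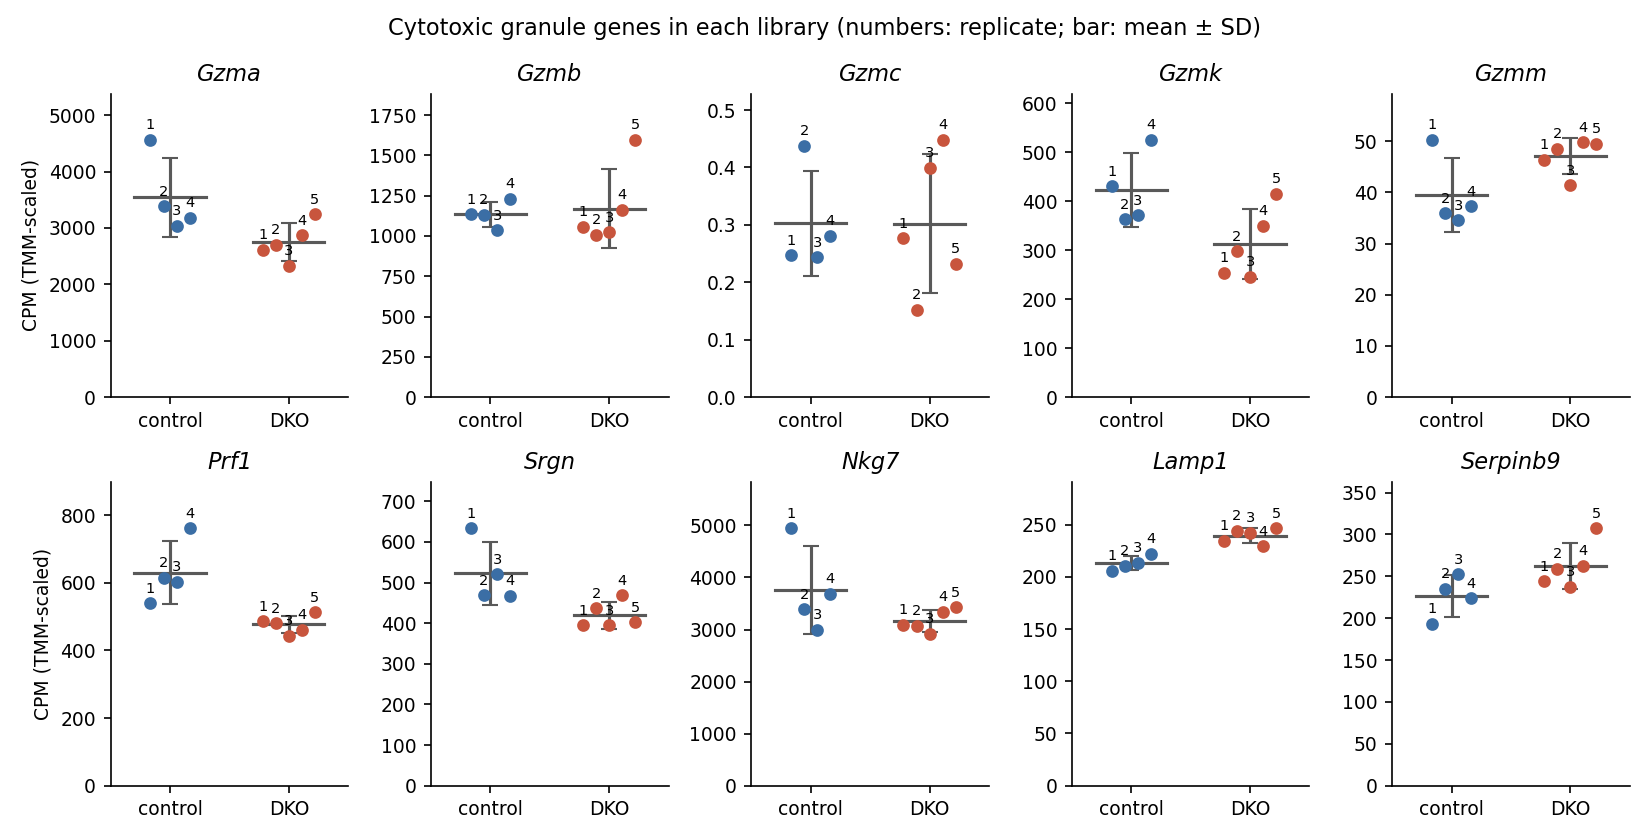
CPM of the 10 granule genes in the 4 control and 5 DKO libraries (points, numbered by replicate; bars, mean ± SD; each axis starts at 0). Prf1 and Lamp1 are the 2 genes whose groups do not overlap, and DKO replicate 5 is the highest DKO library for 7 of the 10. The share of all genes for which it is the highest was not counted.

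Prf1 (ENSMUSG00000037202.6) encodes perforin, the pore former without which granzymes cannot reach the cytosol of a target. The gene lies on chromosome 10, plus strand, 61297833 to 61304680 in GRCm38. Its CPM in control replicates 1 to 4 was 539, 615, 603 and 761, and in DKO replicates 1 to 5 it was 486, 479.7, 443, 461 and 513. Every DKO library was below every control library, and the nearest pair was control replicate 1 and DKO replicate 5. Control averaged 629 ± 93.7 CPM (SD over 4 libraries), and DKO, with 477 ± 26.3 CPM (SD over 5), stood at 75.7% of that. The log2 fold change was -0.40 (SE 0.10), with an unadjusted p of 0.00148 and an adjusted p of 0.0516 in edgeR, just above the threshold. Over the 17 alternatives the log2 fold change stayed negative, from -0.48 to -0.30, and the adjusted p ranged from 0.00482 to 0.207, with 6 under the threshold. The larger value, -0.48 ± 0.08 (SE), with adjusted p 0.00691 in edgeR, came without control replicate 1, in which Prf1 was the lowest of the controls. The smaller, -0.30 ± 0.08 (SE), with adjusted p 0.113 in edgeR, came without control replicate 4, the highest. Leaving out any 1 library other than control replicate 1 gave no call (adjusted p 0.0756 to 0.137, edgeR). Depth did not limit this gene, whose lowest count in a library was 21090.

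The Prf1 promoter is shown because Prf1 was the granule gene nearest the threshold, beside that of Gzmb, whose counts set against those of Prf1 are given further on. Each is the 250 bases before the RefSeq start (GRCm38.p6), and capitals mark matches on either strand to a T-box core (GTGTGA), a Runx core (TGTGGT) or an Ets core (AGGAAG).
Prf1, chr10:61297586-61297835, plus strand: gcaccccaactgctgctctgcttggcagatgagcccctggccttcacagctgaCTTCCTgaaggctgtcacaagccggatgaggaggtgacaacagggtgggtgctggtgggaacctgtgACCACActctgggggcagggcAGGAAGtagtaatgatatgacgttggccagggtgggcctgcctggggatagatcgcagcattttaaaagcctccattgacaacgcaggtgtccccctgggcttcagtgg
Gzmb, chr14:56262335-56262584, minus strand: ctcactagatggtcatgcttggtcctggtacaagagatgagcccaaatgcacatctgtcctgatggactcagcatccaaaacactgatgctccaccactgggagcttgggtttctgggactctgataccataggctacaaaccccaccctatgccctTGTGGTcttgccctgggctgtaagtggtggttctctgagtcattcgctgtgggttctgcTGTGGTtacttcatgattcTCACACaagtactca
The Prf1 window held 1 Runx and 2 Ets matches and 0 T-box matches, and the Gzmb window held 2 Runx matches, 1 T-box match and 0 Ets matches. RefSeq promoters were found for all 10 genes, taking for each the start nearest to the GENCODE start. Windows of 7 of the 10 held the Runx core, which 14.05% of 32851 RefSeq promoter windows of the same length held. The Ets core was in 5 of the 10 (29.5% of all windows) and the T-box core in 3 of the 10 (12.3%). The matches marked in the Prf1 and Gzmb windows do not overlap each other. A match says only that these letters are present. The windows of Gzmk and, by a shorter distance, of Serpinb9 lie inside the GENCODE gene, so they are not those before the GENCODE start. Windows of the other genes end near that start.

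Gzmb (ENSMUSG00000015437.5; chromosome 14, minus strand, 56258838 to 56262260) encodes granzyme B, which activates caspases in the target cell. Its CPM was 1135, 1133, 1035 and 1231 in the control libraries and 1057, 1008, 1024, 1163 and 1596 in the DKO libraries. Apart from DKO replicate 5, the highest of all 9, the DKO values lay within or just below the control range. The means were 1133 ± 79.9 and 1169.6 ± 246 CPM (SD over 4 and 5 libraries), with a log2 fold change of 0.05 ± 0.13 (SE), with adjusted p 0.898 in edgeR. Without DKO replicate 5 it was -0.10 ± 0.08 (SE), with adjusted p 0.672 in edgeR, so the sign of this small difference rested on that library. Without control replicate 1 it was 0.03.

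The ratio of Prf1 to Gzmb counts needs no scaling for library size. It does not remove differences between libraries that go with gene length, as given above for control replicate 1. Prf1 has 2584 exon bases and Gzmb 1436, and in that library they differed from the other controls by -0.28 and 0.01 in log2 level. It was 0.475, 0.543, 0.583 and 0.618 in the control libraries and 0.460, 0.476, 0.433, 0.396 and 0.321 in the DKO libraries. Control replicate 1 was just below DKO replicate 2, and the other 3 controls were above all DKO libraries. The mean ratio was 0.555 ± 0.0615 against 0.417 ± 0.0616 (SD over 4 control and 5 DKO libraries), a difference of -0.42 on the log2 scale (p = 0.0238, exact permutation test, two-sided; the smallest p this design allows is 0.00794). Leaving out 1 library at a time gave differences from -0.49 to -0.33 and p from 0.0179 to 0.0571 in the same exact test. The p was above 0.05 in all of these except those without control replicate 1 or DKO replicate 2. Both of those p were the smallest possible, 0.0179 with a control left out and 0.0286 with a DKO library left out.

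**Figure D3:**
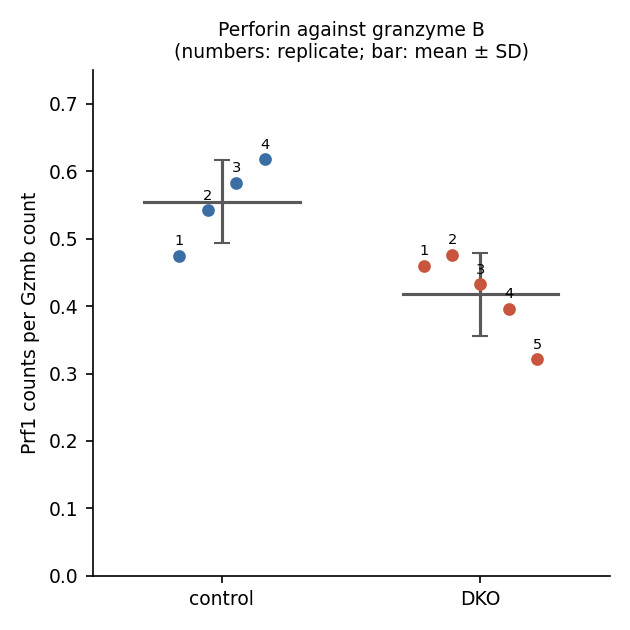
Prf1 counts per Gzmb count in each library (points, numbered by replicate; bars, mean ± SD; axis from 0). The ratio lies between 0.475 and 0.618 in control and between 0.321 and 0.476 in DKO.

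Gzma (ENSMUSG00000023132.8; chromosome 13, minus strand, 113093825 to 113100981) encodes granzyme A, which kills by routes other than caspases. Its CPM was 4562, 3384, 3040 and 3184 in control and 2611, 2700.1, 2329, 2875 and 3240 in DKO. Control replicate 1 was far above the rest, and DKO replicate 5 lay among the controls, so the groups overlapped. The log2 fold change was -0.36 ± 0.13 (SE), with adjusted p 0.179 in edgeR, and -0.23 ± 0.09 (SE), with adjusted p 0.168 in edgeR, without control replicate 1. Gzma made up 63.98 to 73.8% of granzyme counts in control and 61.1 to 66.6% in DKO, and Gzmb 18.4 to 24.7% and 24.9 to 30.1%, so the Gzmb share was higher in every DKO library than in every control library. Shares of one total depend on each other, and the log2 fold change of Gzmb itself was 0.05. The Gzmm share was also apart, at 0.732 to 0.814% in control and 0.934 to 1.20% in DKO. These shares are a description and were not tested.

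Gzmk (ENSMUSG00000042385.14; chromosome 13, minus strand, 113171608 to 113225908) encodes granzyme K and lies near Gzma. Its CPM was 430.4, 363, 371 and 525 in control and 254, 298, 246, 349.7 and 415 in DKO. Of the DKO libraries only replicate 5 reached the control range. The log2 fold change was -0.43 ± 0.16 (SE), with adjusted p 0.216 in edgeR, the most negative of the 10 genes, and it ranged from -0.56 to -0.31 over the alternatives without a call. Without control replicate 1 it was -0.44. The DKO mean was 74.0% of control, and the coefficient of variation was 17.7% in control and 22.6% in DKO.

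Gzmm (ENSMUSG00000054206.2; chromosome 10, plus strand, 79689020 to 79695261) went the other way. Its CPM was 50.3, 36.0, 34.6 and 37.3 in control and 46.4, 48.5, 41.4, 49.8 and 49.5 in DKO. Control replicate 1 was the highest of all 9 libraries, and the other controls were below every DKO library. The log2 fold change was 0.25 ± 0.12 (SE), with adjusted p 0.330 in edgeR, with all libraries, and 0.38 ± 0.08 (SE), with adjusted p 0.0200 in edgeR, without control replicate 1, where the gene passed the threshold. Gzmc (ENSMUSG00000079186.3; chromosome 14, minus strand, 56231441 to 56234656), a granzyme of the Gzmb cluster, had 12, 25, 11 and 16 counts in control and 14, 9, 19, 23 and 11 counts in DKO. Its log2 fold change of -0.01 had an SE of 0.40, so a difference was not detectable at these counts. Without control replicate 1 it was -0.11. Of the 5 other granzymes of that cluster, Gzmd, Gzme, Gzmf, Gzmg and Gzmn, each had 0 counts over all 9 libraries, which allows up to 0.00647 CPM (3 counts of 463895024). Between 5.57 and 21.9% of their 50-base windows occur in transcripts of other genes, so most of each could have been counted. Such limits cover counting error only, because PCR copies are not independent molecules.

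The genes of the granule matrix and membrane had small differences in both directions. Srgn (ENSMUSG00000020077.14; chromosome 10, minus strand, 62493833 to 62527451) was at 634, 468, 521 and 468 CPM in control and at 395, 437, 395, 469 and 402 CPM in DKO. The highest DKO library, replicate 4, reached the 2 lowest controls, and the others lay below. Its log2 fold change was -0.32 ± 0.10 (SE), with adjusted p 0.138 in edgeR, and -0.22 ± 0.07 (SE), with adjusted p 0.0932 in edgeR, without control replicate 1. Serglycin is also made by myeloid cells, whose markers did not all move one way, as given above, and the part of such cells in this value was not tested. Nkg7 (ENSMUSG00000004612.9; chromosome 7, plus strand, 43437073 to 43438249) was at 4944, 3392, 2993 and 3691 CPM in control and at 3091, 3071, 2918, 3344 and 3424 CPM in DKO. With 914 exon bases it is among the shortest of the 10, and its log2 fold change of -0.24 ± 0.13 (SE), with adjusted p 0.378 in edgeR, became -0.10 ± 0.07 (SE), with adjusted p 0.525 in edgeR, without control replicate 1.

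Lamp1 (ENSMUSG00000031447.7; chromosome 8, plus strand, 13159161 to 13175338), the protein that appears on the surface of a T cell that has released its granules, was at 206, 211, 214 and 222 CPM in control and at 235, 244, 242, 229 and 246 CPM in DKO. The groups did not overlap, and the spread within each was the narrowest of the 10, at a coefficient of variation of 3.20% in control and 3.03% in DKO. The log2 fold change was 0.17 ± 0.06 (SE), with adjusted p 0.231 in edgeR, a small difference at 112% of control. Without control replicate 1 it was 0.14. Its counts on the separate strands added up to 1.34 times the unstranded value. Lamp1 overlaps Grtp1 on the opposite strand, and without strand the reads of the pair cannot be told apart, so its level is uncertain. The source of the extra counts was not tested. Serpinb9 (ENSMUSG00000045827.10; chromosome 13, plus strand, 33003250 to 33017957), the inhibitor of granzyme B, was at 193, 235, 253 and 224 CPM in control and at 244, 259, 238, 262 and 307 CPM in DKO. The ranges overlapped, and the log2 fold change was 0.21 ± 0.10 (SE), with adjusted p 0.333 in edgeR. Without control replicate 1 it was 0.13, with adjusted p 0.419 in edgeR.

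**Figure D4:**
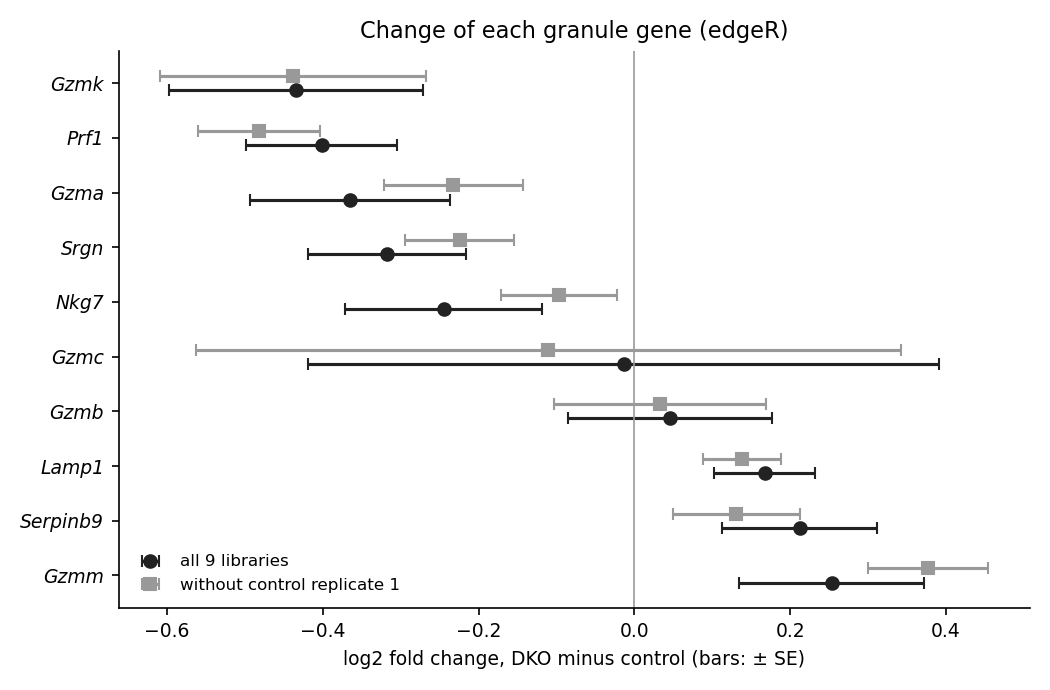
Log2 fold change, DKO minus control, of each granule gene in edgeR (points, ± SE), with all 9 libraries (black) and without control replicate 1 (grey). Leaving that library out moves Nkg7 from -0.24 to -0.10, Prf1 from -0.40 to -0.48 and Gzmm from 0.25 to 0.38.

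Within each group, the same libraries were often the highest or lowest for several granule genes. DKO replicate 5 was the highest DKO library for 7 of the 10 genes (Gzma, Gzmb, Gzmk, Prf1, Nkg7, Lamp1 and Serpinb9), and DKO replicate 3 the lowest for 7 (Gzma, Gzmk, Gzmm, Prf1, Srgn, Nkg7 and Serpinb9). Among controls, replicate 4 was the highest for Gzmb, Gzmk, Prf1 and Lamp1, and replicate 1 for Gzma, Gzmm, Srgn and Nkg7. How often each library was the highest or lowest over all genes was not counted. These orders therefore cannot be read as particular to the granule genes. By the mean absolute difference of log2 CPM, each gene centred on its own mean over the 9 libraries, the 5 genes of 8174 at 10 CPM or more that were most like Prf1 were Litaf, Padi2, Sfxn3, Cnot9 and Ppm1j (0.06 to 0.08, where Prf1 itself deviated from its mean by 0.19 and the median gene differed from it by 0.25). Of these, Sfxn3 fell in DKO (log2 fold change -0.34, adjusted p 0.0357, edgeR) and the other 4 did not pass, where 2.83% of all tested genes passed. The 5 genes most like Gzmb were Ctsd, Tnfaip8l1, Sord, Idh2 and Got1 (0.08 to 0.09), and 0 of these passed, with adjusted p from 0.668 to 0.977 in edgeR. The choice used all 9 libraries, so it favours genes that share the group difference of Prf1 or Gzmb. Calls among the chosen genes therefore follow in part from the choice and are no separate result.

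Genes that act on granules were examined in 7 lists of 74 genes, of which 66 passed the filter on low counts. In edgeR 4 of the 66 passed (6.06%, against 2.83% of all genes): Ctsc, Serpina3g and Eomes fell in DKO and Serpinb1a rose. At an unadjusted p under 0.05 there were 13 of the 66, where 16.0% of all genes had one. DESeq2 called 5 of the 66, adding Stx7 (6.96% of all genes), and limma-voom called 6, adding Stx7 and Runx3 (6.68% of all genes). The edgeR share of 6.06% was above the 2.83% of all genes, but it rests on 4 genes, and the difference between the shares was not tested.

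In the list of granzyme and perforin processing, 1 of 9 genes passed in edgeR, where 2.83% of all genes did. Ctsc, cathepsin C, the enzyme that removes the inhibitory dipeptide from granzymes, was at 454, 506, 462 and 439 CPM in control and at 321, 353, 311, 360.5 and 376 CPM in DKO. Every DKO library was below every control library, and the gap between the groups exceeded the SD of either (28.8 and 27.1 CPM). It fell by 0.43 on the log2 scale (SE 0.08, adjusted p 0.0158, edgeR), and lost the threshold without DKO replicate 1 or 3 (adjusted p 0.0524 to 0.0541, edgeR). Myeloid cells also express Ctsc. Their marker sum was lower in DKO through Ctss, Cd68 and Itgam, while Lyz2 and Csf1r were not lower, and the part of such cells in this value was not tested. Cystatin F (Cst7), an inhibitor of cathepsin C, was at 249.4 and 241 CPM in the 2 groups, and calreticulin (Calr), which binds perforin in the endoplasmic reticulum, at 470.1 ± 37.0 and 460.1 ± 29.9 CPM (adjusted p 0.885, edgeR). Igf2r, one of the receptors that sort granzymes to the granule, was at 56.0 CPM in control replicate 1 and at 154 to 176 CPM in the other controls, against 112 to 121 CPM in DKO. Its adjusted p in edgeR was 0.722 with all libraries and 0.00132 without control replicate 1, where it was lower in DKO by a log2 fold change of -0.49.

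Of 5 other serpins, 2 passed in edgeR, in opposite directions, where 2.83% of all genes passed. Serpina3g, an inhibitor of cysteine proteases that protects T cells from leaked lysosomal enzymes, was at 20.7, 16.0, 21.6 and 29.2 CPM in control and at 10.4, 9.81, 8.05, 11.3 and 7.60 CPM in DKO. It fell by 1.21 on the log2 scale (SE 0.18; edgeR, adjusted p 0.00532) and passed in each of the 17 alternatives, with a log2 fold change of -1.25 without control replicate 1. Serpinb1a, an inhibitor of neutrophil-type serine proteases, was at 33.1, 34.0, 24.1 and 26.5 CPM in control and at 45.9, 41.4, 44.6, 47.0 and 53.3 CPM in DKO. It rose by 0.66 ± 0.12 (SE), with adjusted p 0.0171 in edgeR, and lost the threshold without control replicate 4 (adjusted p 0.0603, edgeR). Serpinb6b, the highest of this list, was at 79.5 and 82.1 CPM (adjusted p 0.850, edgeR).

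Of 6 transcription factor genes, 1 passed in edgeR, where 2.83% of all genes passed. Eomes, a T-box factor that promotes Prf1 and Gzmb transcription, was at 59.6, 66.0, 78.0 and 84.4 CPM in control and at 46.9, 59.0, 46.5, 52.9 and 52.0 CPM in DKO. The highest DKO library lay just below the lowest control. It fell by 0.48 ± 0.12 (SE), with adjusted p 0.0497 in edgeR, and passed in 6 of 17 alternatives. Leaving out any 1 library other than control replicate 1 ended the call (adjusted p 0.0543 to 0.142, edgeR). Id2 was at 2593 ± 435 and 2029 ± 243 CPM (adjusted p 0.159, edgeR), and Tbx21, the other T-box factor of effector cells, was at 1107 ± 113 and 1293 ± 111 CPM (adjusted p 0.253, edgeR). Runx3, whose CPM did not overlap between the groups, was at 114 in control replicate 1, at 216 to 223 in the other controls and at 265 to 289.7 in DKO (adjusted p 0.147, edgeR, and 0.00627 without control replicate 1).

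For the machinery of transport and fusion, 0 of 21 tested genes passed in edgeR, 3 had an unadjusted p under 0.05, and log2 fold changes ran from -0.32 to 0.25. Of all genes, 2.83% passed in edgeR, 6.96% in DESeq2 and 6.68% in limma-voom, and 16.0% had an unadjusted p under 0.05 in edgeR. The nearest was Stx7, a syntaxin of late endosomes, at 41.2 to 47.9 CPM in control and 34.5 to 37.5 CPM in DKO (adjusted p 0.0555, edgeR, and 0.0294 without control replicate 1), which DESeq2 and limma-voom each called. The highest of the list, Rab7 (307 and 309 CPM) and Sytl2 (271 and 297 CPM), had adjusted p of 0.955 and 0.753 in edgeR. In the lysosome list 0 of 12 tested genes passed in edgeR, DESeq2 or limma-voom and 0 had an unadjusted p under 0.05 in edgeR, with log2 fold changes from -0.07 to 0.16. Ctsd was at 1077 and 1072 CPM and Ctsb at 402 and 383 CPM. Cd63, a tetraspanin of granules in other blood cells, did not pass the filter, at 0.573 CPM or less in every library. In the list of chondroitin sulphate synthesis, the enzymes that build the sugar chains of serglycin, 0 of 13 tested genes passed in edgeR, DESeq2 or limma-voom and 2 had an unadjusted p under 0.05 in edgeR. Its highest genes were Chsy1 (237 and 246 CPM) and B4galt7 (170.2 and 174 CPM).

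**Figure D5:**
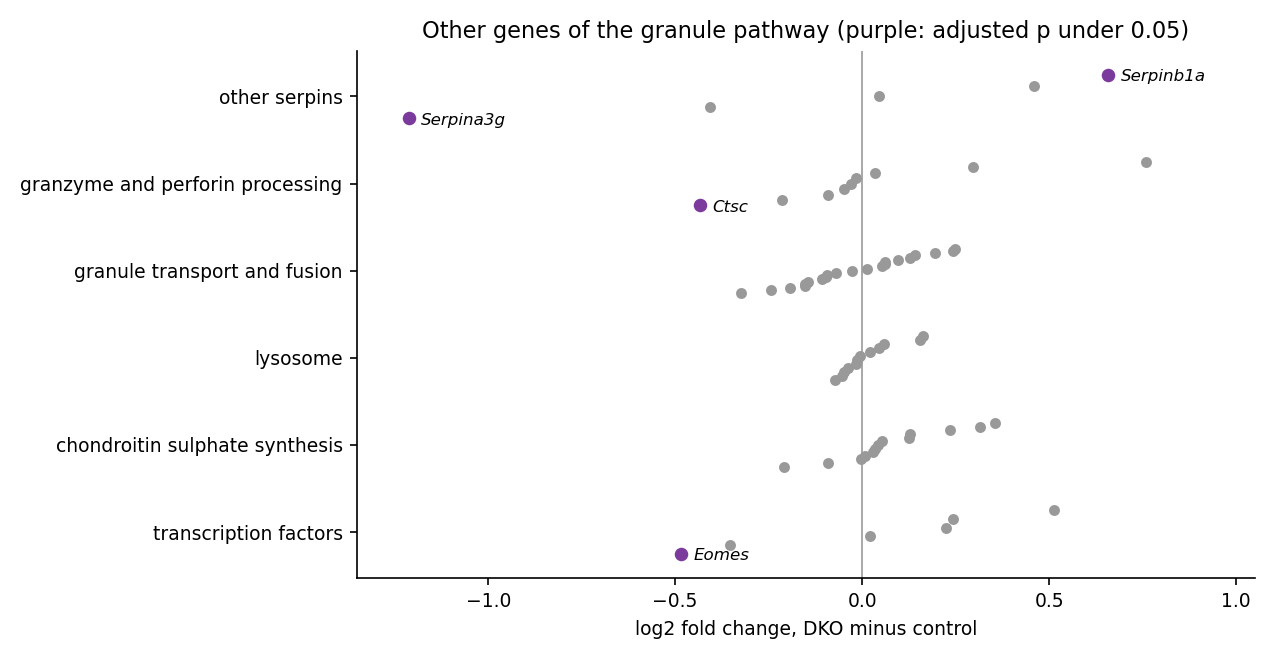
Log2 fold change, DKO minus control, of 66 further genes of the granule pathway by list (points; purple, adjusted p under 0.05 in edgeR). The 4 genes that passed are Serpina3g (-1.21), Eomes (-0.48), Ctsc (-0.43) and Serpinb1a (0.66).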

How the data were processed

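The 9 libraries were sequenced as RNA-seq. STAR 2.7.8a, Trim Galore 0.6.0 and build mm10 come from the submitters' processing notes, and the annotation is not stated there. The values the authors deposited are whole-number counts of reads, without normalization, with an unstranded column and a column for each strand. The unstranded count was taken, because the first strand held 49.9 to 50.1% of the strand counts. A read in genes overlapping on opposite strands is missing from it, as is a read with several places of mapping. Of 55471 identifiers, 55230 matched GENCODE M21 (GRCm38, the same assembly as mm10). Totals exclude the lines without a gene name, which were 10.3 to 16.7% (unmapped), 5.80 to 6.79% (multimapping), 4.01 to 5.20% (no feature) and 4.97 to 5.31% (ambiguous) of a library. No 2 libraries of a group agreed within sampling noise.

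The main test was the quasi-likelihood F-test of edgeR 4.0.16 (R 4.3.3), with TMM factors of 0.987 to 1.03, filterByExpr at a minimum count of 10, and Benjamini-Hochberg adjustment over 14918 genes at a threshold of 0.05. It was run on simulated counts with changes larger than those of the 10 granule genes. That run does not show how often changes of their size would be found. The SE given for edgeR was derived from its test, as the absolute log2 fold change over the square root of the F statistic. CPM use TMM-scaled library sizes, and log2 CPM a prior count of 2. The alternatives were the size factors of DESeq2 in edgeR, the Wald test of DESeq2 1.42.0, limma-voom (limma 3.58.1) with quality weights, no filter, a filter of 1 CPM in 4 libraries, summed strand columns, a replicate block, a surrogate variable from sva 3.50.0, and each library left out in turn. Ratios and figures used Python 3.11.15, numpy 2.4.6, pandas 2.3.3, scipy 1.17.1 and matplotlib 3.10.9. Members and lists were chosen with earlier results of these data known. The genes named are the 10 members, both targeted genes, list genes past the threshold, the 2 highest of each list and the 5 genes most like Prf1 and Gzmb. Any other gene named was chosen after its values were seen.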

Additional observations from a re-analysis of the deposited data

Results flagged for a closer look

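Of 50 groups of 4 or 5 libraries checked for 1 library far from the others (24 genes and the Prf1 to Gzmb ratio, in control and in DKO), 1 stood out, where chance gives about 1 in 20. Gzmb in DKO replicate 5 was at 1596 CPM, and the other DKO libraries ran from 1008 to 1163 CPM.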

How the results depend on the processing

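Among the 10 granule genes, depth limits Gzmc, with 9 to 25 counts a library. Of 168 alternative fits of the 10 granule genes, 148 kept direction and side of the threshold, 12 passed it anew and 8 turned direction, all of the latter for Gzmb and Gzmc. Of all genes, 422 passed in edgeR, 1038 in DESeq2, 996 in limma-voom and 1248 with 1 surrogate variable, which also moved the split to 700 higher and 548 lower from 197 and 225. Leaving out 1 library gave 179 to 749, the most without control replicate 1 and 179, 280, 180, 221 and 228 without DKO replicates 1 to 5, and 187 without control replicate 4. Members past the threshold, 0 in the main analysis, were 2 in DESeq2 and limma-voom, 1 with the stricter filter and with summed strand columns, 4 with the surrogate variable, and 0 to 2 with 1 library left out. Pathway genes past it, 4 in the main analysis, were 8 with the surrogate variable and 2 to 7 with 1 library left out, with 7 without control replicate 1 and 2 without control replicate 4 or DKO replicates 1 or 3. The Prf1 to Gzmb difference ranged from -0.49 to -0.33 with 1 library left out. The cause of these shifts was not tested.

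Titles give both groups replicate numbers 1 to 4, but same-numbered libraries did not deviate together (correlations -0.0469, -0.0092, 0.0124 and -0.117), and not every library correlated best with its own number, so the numbers do not pair the libraries. With the replicate block, 67 genes, 0 members and 1 pathway gene (Serpina3g) passed, the adjusted p in edgeR being 0.104 for Ctsc, 0.122 for Serpinb1a and 0.206 for Eomes, Gzmb was at -0.0922, Gzmc at 0.0301 and Chsy1 at -0.11, and the Prf1 to Gzmb difference was -0.33 (exact permutation p = 0.125, the smallest that design allows).

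The other log2 fold changes that turned direction, of genes chosen by the naming rule, follow. None of these genes passed in any fit run. Gzmb was at -0.0266 in limma-voom and ran from -0.0958 (without DKO replicate 5) to 0.0936 with 1 library left out. Gzmc ran from -0.202 to 0.223 with 1 library left out, above 0 without control replicate 2 or DKO replicates 1, 2 or 5. Serpinb6b ran from -0.0057 (without DKO replicate 4) to 0.0828. Rab7 was at -0.0049 with the stricter filter and ran from -0.0198 (without control replicate 3) to 0.0448. Sytl2 was at -0.0370 in limma-voom and ran from -0.0650 (without control replicate 1) to 0.221. Ctsd was at 0.0016 with the surrogate variable and ran from -0.0530 to 0.0437, above 0 without control replicate 4 or DKO replicates 2 or 3. Chsy1 was at -0.0114 in limma-voom and ran from -0.0644 to 0.225, below 0 when DKO replicate 1 or 5 or control replicate 3 or 4 was left out. Of the genes named outside that rule, Cst7 went from -0.05 to 0.04 without control replicate 1.

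Levels per length moved beyond 1 SD with the longest transcript as length for Gzma (7569 TPM), Gzmb (1962), Prf1 (538), Nkg7 (9461) and Serpinb9 (174), and with summed strand columns for Gzmm (81.8), Srgn (582), Nkg7 (10285) and Lamp1 (314).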
